A study of Mus musculus with 2 samples.

Results

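Spermatogonia in S phase were selected on measured mRNA: they are the cultured mouse germ cells with the highest shares of transcripts from 8 genes of DNA replication. They numbered 298 of 1490 germ cells, of 1676 cells in all. Each cell was read by the number of its unique molecular identifiers (UMIs), where each UMI stands for 1 captured mRNA molecule. A cell with at least 1000 UMIs counted as a germ cell where the UMIs of Ddx4, Dazl, Mael, Dnd1 and Zbtb16 together exceeded those of the fibroblast genes Col1a1, Col1a2, Col3a1, Fn1 and Sparc. The 20% of germ cells with the highest share of UMIs from Top2a, Mki67, Ccnb1, Ccnb2, Cenpf, Ube2c, Tpx2 and Nusap1 were set aside as G2/M-high cells. Of the germ cells left, the 25% with the highest share of UMIs from Cdc6, Dtl, Ung, Dscc1, Mcm10, Lig1, Esco2 and Mcm5 were the S phase-high cells, and the others are called the remaining germ cells.

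The cells came from undifferentiated spermatogonia of adult C57BL/6 mouse testes, isolated by magnetic sorting for THY1 and grown as a primary culture with GDNF and bFGF, without serum, on a feeder layer of SNL76/7 fibroblasts treated with mitomycin. In both groups the spermatogonia were lifted off the feeder layer and treated on plastic for 24 h with 2 µL Lipofectamine and 75 pmol siRNA. One group received siRNA against Chd4, which encodes a chromatin remodelling ATPase of NuRD, and the other received a control siRNA with no target. Equal numbers of cells from 3 biological replicates were pooled after transfection into 1 droplet library (10x Genomics v2 chemistry) per group. The replicate of a cell is therefore unknown. With 1 library per group no difference between groups was tested, and every interval given below is a 95% interval that covers counting error only. A gene is called higher or lower where 2 summed levels differed by at least 1.5-fold and at least 200 UMIs lay behind them.

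S phase is the part of the cell cycle in which the genome is copied. In late G1 the MCM helicase is loaded onto replication origins with the help of CDC6 and CDT1, and cyclin E and E2F transcription factors raise the genes of the replication machinery. At the start of S phase CDC45 and the GINS complex turn the loaded helicase into an active fork, DNA polymerases copy both strands, PCNA clamps them to the template, and new histones and maintenance methylation restore the chromatin. Undifferentiated spermatogonia, the population that holds the spermatogonial stem cells, divide in culture under GDNF and FGF signals.

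E2F factors bind a short sequence in many promoters of replication genes. Of the genes that led the S phase-high cells, the promoters of the 5 that held a match to such a motif are shown. The motif searched was TTT, then 2 letters that are each G or C, then CGC, on either strand. It stands for the words TTTGGCGC, TTTGCCGC, TTTCGCGC and TTTCCCGC. Each sequence runs from 250 bases before an annotated start site to 50 bases from it on (RefSeq, GRCm38.p6), and capitals mark the matches in either orientation. The 2810417H13Rik gene carries the RefSeq symbol Pclaf. The windows were chr9:65890073-65890372 (+) for Pclaf, chr4:126556730-126557029 (+) for Clspn, chr1:20820263-20820562 (−) for Mcm3, chr1:128359656-128359955 (−) for Mcm6 and chr17:56304063-56304362 (+) for Uhrf1.
Pclaf: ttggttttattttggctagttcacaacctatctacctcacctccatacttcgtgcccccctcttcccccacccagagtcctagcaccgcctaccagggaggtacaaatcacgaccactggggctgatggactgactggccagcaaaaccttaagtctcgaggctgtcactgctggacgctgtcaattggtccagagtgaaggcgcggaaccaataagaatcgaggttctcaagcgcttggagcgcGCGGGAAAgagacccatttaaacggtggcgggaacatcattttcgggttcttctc
Clspn: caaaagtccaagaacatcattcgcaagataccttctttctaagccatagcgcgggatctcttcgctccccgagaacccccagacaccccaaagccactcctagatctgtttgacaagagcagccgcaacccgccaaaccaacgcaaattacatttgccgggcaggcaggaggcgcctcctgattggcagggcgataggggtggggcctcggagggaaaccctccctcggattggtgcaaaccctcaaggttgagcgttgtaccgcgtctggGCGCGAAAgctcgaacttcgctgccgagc
Mcm3: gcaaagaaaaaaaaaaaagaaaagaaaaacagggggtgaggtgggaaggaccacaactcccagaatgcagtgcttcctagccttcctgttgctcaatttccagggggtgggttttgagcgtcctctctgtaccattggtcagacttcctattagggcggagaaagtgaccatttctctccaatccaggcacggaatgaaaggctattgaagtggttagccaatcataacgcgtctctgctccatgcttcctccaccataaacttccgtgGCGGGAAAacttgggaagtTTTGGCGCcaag
Mcm6: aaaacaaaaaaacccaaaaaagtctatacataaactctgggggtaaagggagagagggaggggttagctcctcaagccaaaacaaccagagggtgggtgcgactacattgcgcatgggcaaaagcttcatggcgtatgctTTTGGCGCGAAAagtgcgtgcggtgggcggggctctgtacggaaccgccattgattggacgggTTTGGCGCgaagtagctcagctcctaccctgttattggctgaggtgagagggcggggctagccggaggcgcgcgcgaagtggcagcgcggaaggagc
Uhrf1: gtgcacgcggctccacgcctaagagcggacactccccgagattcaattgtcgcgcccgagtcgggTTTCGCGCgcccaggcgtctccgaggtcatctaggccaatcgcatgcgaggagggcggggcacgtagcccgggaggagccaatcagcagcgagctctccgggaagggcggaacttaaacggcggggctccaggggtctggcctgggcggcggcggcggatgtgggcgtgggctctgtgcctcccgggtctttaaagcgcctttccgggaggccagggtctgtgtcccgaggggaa
In the Pclaf promoter the match began 5 bases before the start site. Mcm6 held 3 matches, of which a pair overlapped, and Mcm3 held 2. Uhrf1 has 2 listed start sites, and the window of the other held no match. A match is a run of letters and does not show binding.

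The motif stood in the promoter of 5 of the 11 leading genes with a listed promoter (45.5%) and of 4 of the 6 such genes among the 8 that chose the cells (66.7%). Those 4 were Cdc6, Dtl, Lig1 and Mcm5. The leading genes with a listed promoter and no match were Aunip, Birc5, Tuba3b, Cdca3, Tuba1b and Hmgb2. Among replication genes outside the rule it stood in 17 of 47 (36.2%), among all genes measured with at least 200 UMIs in each library in 247 of 4182 (5.91%), and among all genes of the table in 704 of 27025 (2.61%). None of the 6 genes with a listed promoter among the 10 lowest in S phase-high cells held it. Clspn, Mcm3 and Mcm6 count among both the leading genes and the replication genes.

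Of the germ cells, 157 of 760 under Chd4 siRNA (20.7%, 17.8 to 23.7%) and 141 of 730 under control siRNA (19.3%, 16.5 to 22.4%) were S phase-high. The difference was 1.34 percentage points, with an interval from −2.73 to 5.40 that includes 0. The G2/M-high cells made up 148 (19.5%) and 150 (20.5%) germ cells, and the remaining germ cells numbered 455 under Chd4 siRNA and 439 under control siRNA. The thresholds were set over both libraries together, so their sum is fixed by the rule and only the split between libraries is a measurement.

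The S phase-high cells held a median of 15957 UMIs under Chd4 siRNA and 15502 under control siRNA, and the remaining germ cells 14566 and 14286. A median of 12 UMIs per S phase-high cell under Chd4 siRNA and 13 under control siRNA came from the 8 genes, in either library with a range of 2 to 52. The lowest share inside was 4.91 UMIs per 10000 and the highest outside 4.905, and 72 remaining cells held no UMI of the 8 genes, so the boundary runs through a continuous range. Summed over the S phase-high cells, 2527122 UMIs were counted under Chd4 siRNA and 2257935 under control siRNA. Levels below are UMIs of a gene per 1000000 summed UMIs of a cell set (CPM). Barcodes were listed for 799 cells of the Chd4 siRNA library and 817 of the control library. They shared 1 barcode, which belonged to no S phase-high cell.

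**Figure D1:**
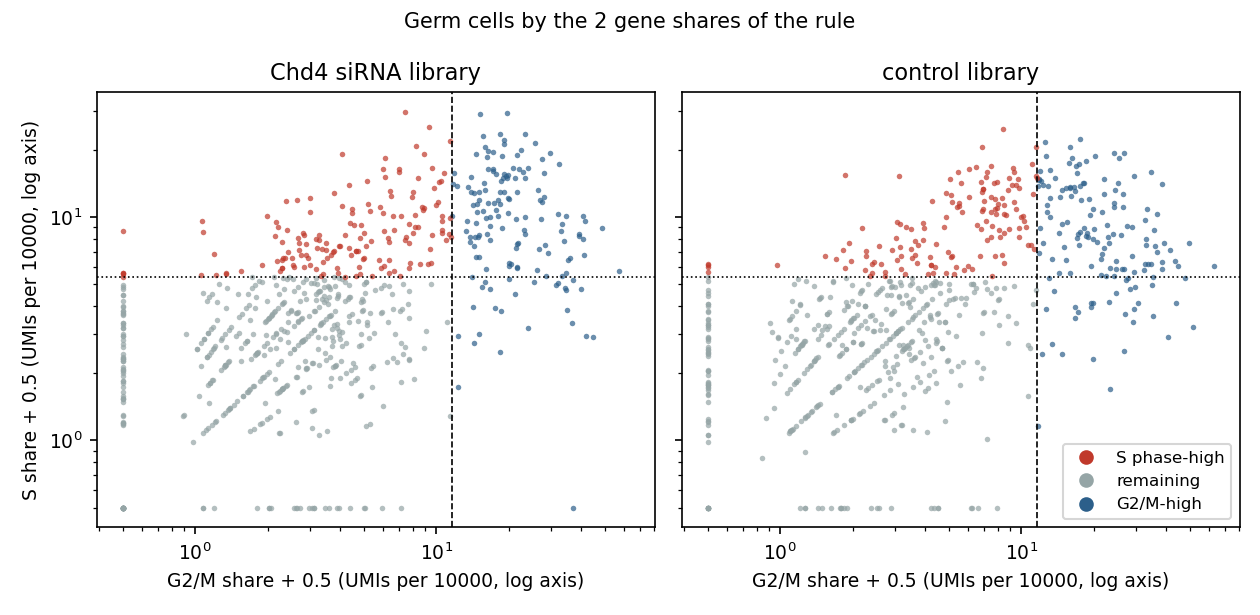
Each point is a germ cell, with its share of UMIs from the 8 G2/M genes on the x axis and from the 8 S phase genes on the y axis (UMIs per 10000 plus 0.5, log axes); dashed and dotted lines mark the thresholds of 11.2 and 4.91 UMIs per 10000. The S phase-high cells (red) lie above the dotted line without a gap to the remaining cells (grey), and most G2/M-high cells (blue) also lie above it.

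The 8 genes of the rule are given as a description, since they chose the cells. Together they stood at 884 CPM (847 to 921) in S phase-high cells under Chd4 siRNA and 952 CPM (912 to 993) under control siRNA. In the remaining germ cells they stood at 230 and 230 CPM, and in cells outside the germ cell class at 106 and 143 CPM. Ung, which cuts uracil out of DNA, had 241 CPM under Chd4 siRNA and 235 CPM under control siRNA in S phase-high cells, against 66.8 and 66.3 CPM in the remaining cells. Lig1, the ligase that joins Okazaki fragments, had 259 and 278 CPM in S phase-high cells, against 83.5 and 79.9 CPM in the remaining cells. Mcm5, a helicase subunit, had 120 and 140 CPM, against 31.6 and 35.5 CPM. Esco2, which acetylates cohesin during replication, had 99.3 and 111 CPM, against 16.6 and 16.0 CPM. Dtl, which targets CDT1 for destruction, had 72.0 and 83.3 CPM, against 15.6 and 15.1 CPM. The helicase activator gene Mcm10 had 55.4 and 59.8 CPM, against 10.7 and 11.0 CPM. Dscc1, a subunit of a clamp loader, stood at 19.8 and 22.6 CPM against 2.52 and 2.95 CPM, and the licensing gene Cdc6 at 18.2 and 23.0 CPM against 2.22 and 3.42 CPM.

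Each of these genes was then read in cells chosen with the other 7 alone, a value that its own choice did not use. Between 248 and 295 of the 298 cells stayed the same. The log2 ratio of chosen over remaining cells had a median of 1.87 under Chd4 siRNA and 2.11 under control siRNA. It was highest for Dscc1 at 2.86 (2.05 to 3.73) and 2.74 (1.97 to 3.55), and lowest for Lig1 at 1.12 (0.95 to 1.28) and 1.29 (1.12 to 1.46). All 8 genes were higher in the cells that the other 7 chose, in both libraries.

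The label was checked with 20 S phase markers outside the rule. All 20 stood above 0 in S phase-high over remaining cells in both libraries, with a median log2 ratio of 1.17 under Chd4 siRNA and 1.35 under control siRNA. Over all genes with at least 20 UMIs, 11206 and 11083 of them, the median was −0.0004 and 0.01. Against G2/M-high cells the same 20 markers had a median of −0.32 with 19 below 0 under Chd4 siRNA, and of 0.06 with 6 below 0 under control siRNA, so they set the S phase-high cells apart from the remaining cells and not from the G2/M-high cells. As the rule sets it, the 5 germ cell genes of the rule stood at 1993 CPM under Chd4 siRNA and 1881 CPM under control siRNA, against 56.4 and 56.0 CPM outside the class. The 5 fibroblast genes of the rule stood at 67.7 and 62.9 CPM, against 2286 and 2076 CPM outside the class, and Lgals1 accounted for 582 of 643 CPM and 594 of 661 CPM of a second list of fibroblast markers. Sertoli cell markers summed to 10.7 CPM under Chd4 siRNA and 19.9 CPM under control siRNA with Amh and Wt1 at 0, Leydig cell markers to 1.58 and 0.886 CPM with 3 of 4 genes at 0, macrophage markers to 15.04 and 11.96 CPM with Ptprc and Adgre1 at 0, and endothelial markers to 13.5 and 15.9 CPM with Tie1 at 0.

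The label covers more than S phase alone on one count. Mitotic and G2/M genes were also higher than in the remaining cells, although the cells with the highest G2/M shares had been set aside: 9 of 9 measured G2/M markers outside the rule stood above 0 in each library, with medians of 1.005 under Chd4 siRNA and 0.77 under control siRNA. The 8 G2/M genes of the rule summed to 499 and 552 CPM in S phase-high cells, against 219 and 224 CPM in the remaining cells and 2234 and 2313 CPM in G2/M-high cells. In turn, 238 of the 298 G2/M-high cells (79.9%) met the S phase threshold, 121 (81.8%) under Chd4 siRNA and 117 (78.0%) under control siRNA. The rule therefore leaves out many cells that also carried S phase mRNAs.

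Outside the rule, 111 of 5580 genes (1.99%) were called higher and 45 (0.806%) lower in S phase-high than in remaining cells under Chd4 siRNA. Under control siRNA 132 of 5291 genes (2.49%) were called higher and 48 (0.907%) lower. In both libraries at once, 79 of 5228 genes (1.51%) were higher and 5 (0.0956%) lower. The 2 cell sets were thus alike within 1.5-fold for 97.2% of genes under Chd4 siRNA and 96.6% under control siRNA. No test supports these counts, since the cells were divided by their own mRNA. Genes of DNA replication that the rule did not use made up 59 names, of which 55 were among the named rows and all 55 had at least 20 UMIs: 54 stood above 0 under Chd4 siRNA and 51 under control siRNA, with medians of 0.63 and 0.73. With at least 200 UMIs, 15 of 38 were called higher under Chd4 siRNA and 19 of 39 under control siRNA, and none lower.

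**Figure D2:**
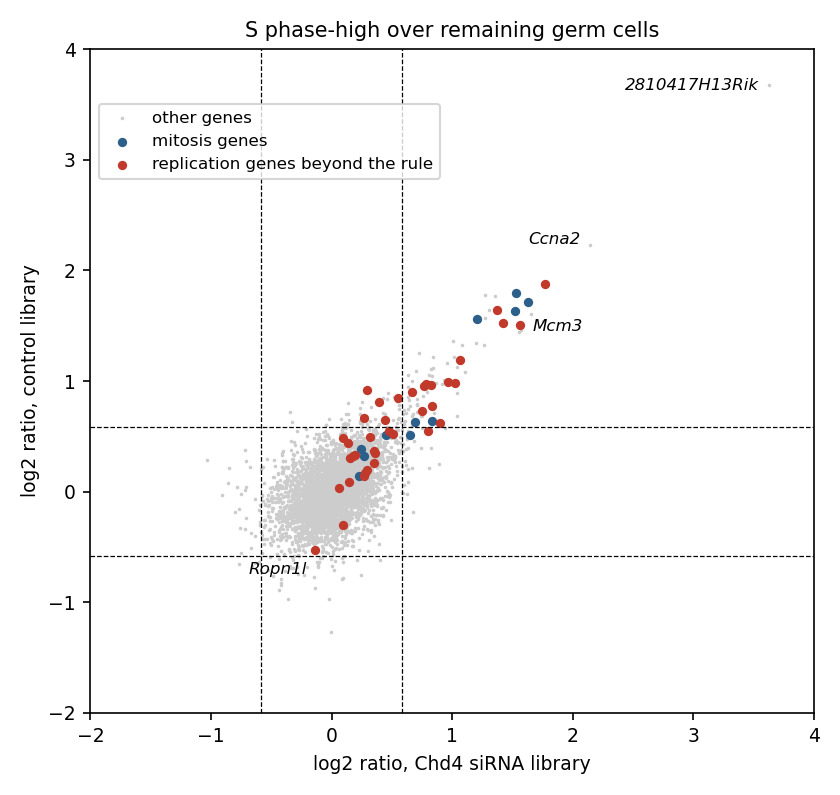
Each point is a gene with at least 200 UMIs in each library, with its log2 ratio of S phase-high over remaining germ cells in the Chd4 siRNA library (x axis) and in the control library (y axis); dashed lines mark 1.5-fold. Replication genes outside the rule (red) and mitosis genes (blue) extend along the diagonal to the upper right, and 2810417H13Rik stands farthest out at 3.63 and 3.67.

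The origin licensing genes had medians of 0.61 under Chd4 siRNA and 0.88 under control siRNA. Mcm3, a subunit of the MCM helicase, had 132 and 152 CPM in S phase-high cells, against 44.7 and 53.5 CPM in the remaining cells (log2 1.57, 1.34 to 1.79, under Chd4 siRNA and 1.51, 1.29 to 1.73, under control siRNA). Mcm6 had 115 and 132 CPM against 42.9 and 45.9 CPM (1.42 and 1.52), and Mcm2 97.0 and 116 CPM against 46.3 and 50.9 CPM (1.07 and 1.19). Mcm4 stood at 0.96 and 0.99, and Mcm7 at 0.80 and 0.55. Mcm3 thus stood further above the remaining cells than Mcm7 did, with intervals that do not overlap in either library. Gmnn, which blocks a second round of licensing, was at 95.4 and 106 CPM against 36.8 and 33.9 CPM (1.37 and 1.64). Of the origin recognition complex, Orc1 stood at 0.67 and 1.30 and Orc6 at 0.55 and 0.84, while Orc4 lay at 0.06 and 0.04 and Orc3 at 0.09 and −0.30 with intervals that include 0.

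All 14 genes of helicase activation and fork progression stood above 0, with medians of 0.99 under Chd4 siRNA and 0.90 under control siRNA. Clspn, the checkpoint mediator that travels with the fork, had 97.0 and 125 CPM in S phase-high cells, against 28.5 and 34.1 CPM in the remaining cells (1.77 and 1.88). Cdc45, part of the active helicase, had 32.5 and 39.0 CPM against 8.46 and 9.80 CPM (1.94 and 1.99). Wdhd1, which links polymerase alpha to the fork, stood at 1.48 and 1.69, and Gins2, a GINS subunit, at 1.07 (0.55 to 1.58) and 1.86 (1.39 to 2.34). The fork protection pair Tipin and Timeless was higher by less: Tipin had 315 and 328 CPM against 184 and 170 CPM (0.77 and 0.95), and Timeless stood at 0.67 and 0.90.

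DNA polymerase and primase genes had medians of 0.37 and 0.63. Prim1, the catalytic primase subunit, had 32.5 and 28.8 CPM in S phase-high cells, against 14.5 and 13.5 CPM in the remaining cells (1.16 and 1.09). Pole, the catalytic subunit of polymerase epsilon, stood at 0.90 and 0.62 and Pold1, that of polymerase delta, at 0.84 and 0.77. The accessory subunits Pole3 (0.29 and 0.19) and Pold2 (0.15 and 0.30) had lower ratios, some with overlapping intervals. Pola1, with many of its UMIs in few cells, is described last. Clamp, clamp loader and Okazaki fragment genes had medians of 0.36 and 0.46. Pcna, the sliding clamp, had 135 and 146 CPM against 66.3 and 73.9 CPM (1.02, 0.81 to 1.23, and 0.98, 0.77 to 1.19). Rpa2, a subunit of the single-strand binding protein RPA, stood at 0.83 and 0.96, and Rfc3, a clamp loader subunit, at 0.51 and 0.52. Chtf8 was the only member of this group below 0 in both libraries, at −0.14 and −0.52.

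Nucleotide supply genes had medians of 0.53 and 0.51, and 1 gene stood out. Rrm2, the subunit of ribonucleotide reductase whose level follows the cell cycle, had 38.8 and 33.7 CPM in S phase-high cells, against 5.79 and 7.31 CPM in the remaining cells (2.75, 2.20 to 3.32, and 2.20, 1.66 to 2.76). Its partner Rrm1 stood at 0.83 and 1.04. Dut, which removes dUTP, had 396 and 446 CPM against 207 and 221 CPM (0.94 and 1.01). Tk1, an enzyme of thymidylate supply, stood at 0.92 and 0.97. Among genes of chromatin assembly and maintenance methylation (medians 0.60 and 0.70), Uhrf1, which recruits DNMT1 to newly copied DNA, had 148 and 188 CPM against 61.1 and 54.9 CPM (1.27 and 1.78). Dnmt1 itself stood at 0.60 and 0.70, the histone chaperone gene Asf1b at 1.01 and 1.36, and Chaf1a, of the CAF-1 chaperone, at 0.63 and 0.95. Slbp, which binds the 3′ end of histone mRNAs, had 238 and 259 CPM against 150 and 129 CPM (0.66 and 1.003).

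Histone mRNAs of the replication-dependent kind were read poorly, since most lack the poly(A) tail that the library chemistry primes on. Only 24 of 69 such genes under Chd4 siRNA and 27 under control siRNA had at least 20 UMIs, with medians of 0.36 and 0.55. Hist1h2ap, an H2A gene, had 21.8 and 70.4 CPM in S phase-high cells, against 14.8 and 37.5 CPM in the remaining cells (0.55, 0.05 to 1.04, and 0.91, 0.61 to 1.20). The linker histone genes Hist1h1b (0.34 and 0.33) and Hist1h1e (0.21 and 0.26) had intervals that include 0. Near-identical histone genes can share reads, so single values are uncertain. Cohesin and its partners stayed close to the remaining cells, with medians of 0.08 and 0.13 and 0 of 9 genes past 1.5-fold in either library. That count is near the share of all genes, of which 97.2% and 96.6% were within 1.5-fold. Rad21 (0.12 and 0.13) and Smc1a (0.19 and 0.23), both subunits of the cohesin ring, were typical.

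Among cell cycle regulators, E2F factors and S phase cyclins had medians of 1.56 and 1.38, but 11 of 14 genes under each siRNA had fewer than 200 UMIs. Ccna2, cyclin A2, had 71.6 and 66.4 CPM in S phase-high cells, against 16.2 and 14.2 CPM in the remaining cells (2.15, 1.80 to 2.50, and 2.23, 1.85 to 2.62). E2f1, an activator of S phase genes, stood at 1.66 and 1.21. E2f8, a repressor of the same genes, had 28 and 17 UMIs in S phase-high cells, against 4 and 4 in the remaining cells (4.22, 2.71 to 6.20, and 3.60, 1.98 to 5.63). Cyclin E2 (Ccne2) stood at 1.45 and 1.35 and cyclin E1 (Ccne1) at 0.79 and 1.16. The G1 list had medians of 0.06 and 0.16, with 5 of 9 and 7 of 10 above 0. In it Ccnd1 stood at 0.54 and 0.82 and Ccnd3 at 0.06 and 0.16, both D cyclins, while the CDK inhibitor Cdkn1a stood at −0.64 and −0.07. By cells with a UMI Cdkn1a was level under Chd4 siRNA, as described below with the p53 targets.

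Checkpoint and repair genes had medians of 1.04 and 1.24. Brca1, which acts in the repair of broken DNA by recombination, had 27.3 and 26.1 CPM in S phase-high cells, against 8.90 and 5.91 CPM in the remaining cells (1.62 and 2.14). The nuclease gene Exo1 stood at 1.49 and 1.34, and the checkpoint kinase gene Chek1 at 1.38 and 1.15. Mitosis genes had medians of 0.86 and 0.90, with 26 of 26 above 0 in each library and 8 of 14 and 6 of 11 called higher. Birc5, which encodes survivin, had 67.3 and 80.2 CPM against 23.3 and 23.0 CPM (1.53 and 1.80), Cdca3 65.7 and 77.1 CPM against 22.8 and 24.9 CPM (1.52 and 1.63), and the kinase gene Pbk 52.2 and 61.1 CPM against 16.9 and 18.7 CPM (1.63 and 1.71). Cdc20, which acts at the metaphase exit, was near 0 at 0.23 and 0.14. These mitosis genes moved with the S phase genes, and what part of their difference comes from cells between S phase and mitosis was not tested.

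By the size rule over both libraries, 2810417H13Rik led. It encodes PCLAF, a small protein that binds PCNA at forks. It had 98.9 and 107 CPM in S phase-high cells, against 8.01 and 8.398 CPM in the remaining cells, a difference of 12.4-fold under Chd4 siRNA and 12.8-fold under control siRNA. Ccna2, Clspn and Mcm3 were also among the leading genes, as were Aunip (1.66 and 1.61), which acts with Aurora A at the spindle and at broken DNA, Pbk, Birc5, the tubulin gene Tuba3b (1.57 and 1.46), Cdca3, Mcm6, Tuba1b (1.35 and 1.77), Gmnn, Hmgb2 and Uhrf1. Hmgb2, a chromatin protein of dividing cells, had 433 and 554 CPM against 187 and 188 CPM (1.21 and 1.56). Alpha tubulin genes are close in sequence, and Tuba3b has a near-identical copy that can share its reads, so its counts are uncertain.

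At a fixed depth of 9000 UMIs per cell, 2810417H13Rik was seen in 54 of 149 S phase-high cells under Chd4 siRNA (36.2%, 28.5 to 44.5%) and 50 of 129 under control siRNA (38.8%, 30.3 to 47.7%). The remaining cells gave 6.16% and 7.09%, G2/M-high cells 77.1% and 63.1%, and cells outside the germ cell class 18.4% and 22.1%. Thinning left out 8 and 12 S phase-high cells that were shallower, and 49 and 44 remaining, 8 and 9 G2/M-high and 13 and 9 outside cells. Without thinning the S phase-high shares were 46.5% and 51.1% at the median depths given above, and those outside the class 23.0% and 31.4% at medians of 37890 and 37588 UMIs. A cell without a UMI may still express the gene, so these shares describe detection at a given depth.

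**Figure D3:**
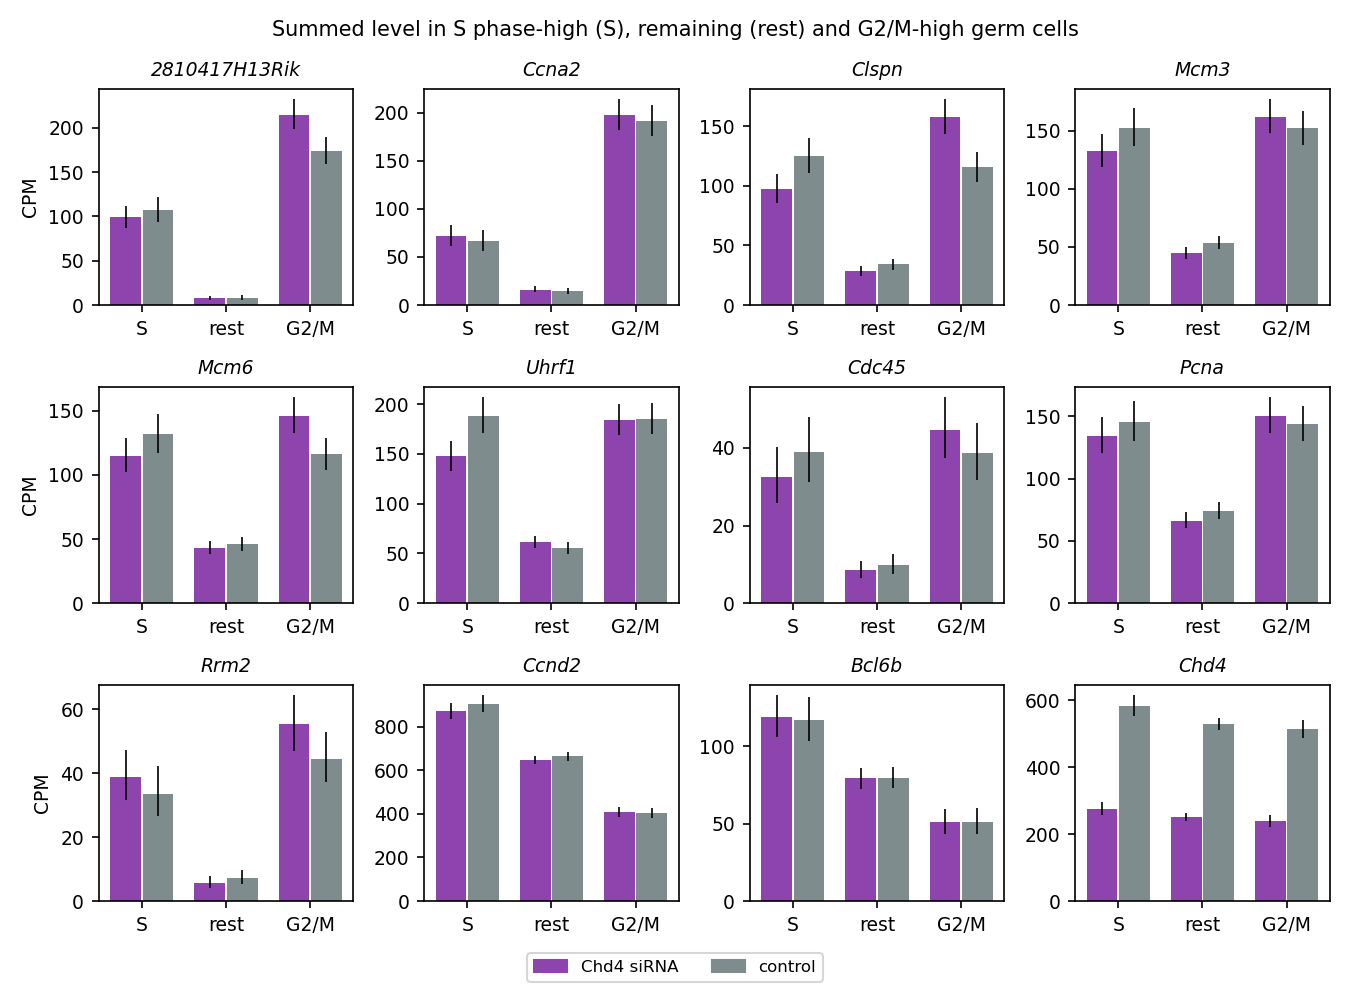
Bars give the summed level (CPM) of 12 genes in S phase-high cells (S), remaining cells (rest) and G2/M-high cells (G2/M) of the Chd4 siRNA library (purple) and the control library (grey), with 95% counting intervals. Replication genes stand high in S and G2/M alike, Ccnd2 and Bcl6b are highest in S, and Chd4 is lower under Chd4 siRNA in each cell set.

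The genes lowest in S phase-high cells differed by less. Ropn1l, a gene of the sperm fibrous sheath, had 28.9 and 32.3 CPM in S phase-high cells, against 49.1 and 51.0 CPM in the remaining cells (−0.77, −1.15 to −0.40, and −0.66, −1.04 to −0.29). Zfos1 stood at −0.42 and −0.84, Tatdn1 at −0.66 and −0.67, Bin2 at −0.60 and −0.64 and Phf21a at −0.51 and −0.59. Saraf, which limits store-operated calcium entry, stood at −0.42 and −0.43, Tapbp, of MHC class I loading, at −0.42 and −0.41, and Oxa1l, of mitochondrial inner membrane insertion, at −0.50 and −0.43. Eef2, the translation elongation factor, had 2596 and 2037 CPM against 3086 and 2569 CPM (−0.25 and −0.33), and the ribosomal protein gene Rps4x 767 and 722 CPM against 927 and 896 CPM (−0.27 and −0.31). Cytosolic ribosomal protein genes had medians of −0.09 and −0.11, with 76 of 84 below 0 in each library and 0 past 1.5-fold. Cholesterol synthesis genes had medians of −0.27 and −0.17, with 16 of 17 below 0 under Chd4 siRNA and 13 of 17 under control siRNA, and 1 of 17 called lower in each. Since levels are shares of each cell's mRNA, a higher share of some genes lowers that of others, and the part of this in these ratios was not tested.

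Genes of the stem cell state were mostly level with the remaining cells, and 3 self-renewal genes had intervals above 0 in both libraries. Self-renewal genes had medians of 0.22 under Chd4 siRNA and −0.00 under control siRNA, undifferentiated and progenitor genes −0.18 and −0.11, and germ cell identity genes outside the rule −0.10 and 0.00. With at least 200 UMIs, 0 of 8, 0 of 5 and 0 of 9 genes of these lists passed 1.5-fold in each library. Of all genes, 97.2% and 96.6% stayed within 1.5-fold, so these counts are near the share of all genes. Self-renewal genes with at least 20 UMIs ran from −0.09 to 0.93 under Chd4 siRNA, with 11 of 13 above 0. Under control siRNA they ran from −2.95 to 0.83, with 6 of 13 above 0. Values past 1.5-fold in these 2 ranges came from genes with fewer than 200 UMIs, so these ends are uncertain. Bcl6b, a GDNF-responsive repressor of spermatogonial stem cells, had 119 and 117 CPM in S phase-high cells, against 79.2 and 79.6 CPM in the remaining cells (0.58, 0.37 to 0.79, and 0.55, 0.33 to 0.77). T, the T-box gene Brachyury of the same state, had 29.7 and 27.9 CPM against 17.1 and 15.7 CPM (0.80, 0.36 to 1.23, and 0.83, 0.35 to 1.30) on 75 and 63 UMIs in S phase-high cells. Lhx1, a transcription factor induced by GDNF, stood at 0.30 (0.07 to 0.52) and 0.42 (0.19 to 0.64). Etv5 stood at 0.12 and −0.00, Nanos2 at 0.22 and −0.25, Id4 at 0.18 and −0.29 and Foxc2 at 0.10 and 0.03, all with intervals that include 0. At 9000 UMIs the differentiation marker Kit was seen in 0 of 149 S phase-high cells under Chd4 siRNA (upper limit 2.44%). Under control siRNA it was seen in 1 of 129. The limit is on cells with a UMI, not on cells that express Kit. Remaining cells gave 2 of 406 and 4 of 395, and cells outside the class 0 of 87 and 0 of 77. Stra8, another such marker, was seen in 4 of 149 and 4 of 129 S phase-high cells. Its counts in the remaining cells were 5 of 406 and 8 of 395. The list of differentiating genes had medians of 0.05 and 0.23 over the remaining cells, with 4 of 8 and 4 of 6 above 0.

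Most replication genes were as high or higher in G2/M-high cells. Against those cells, 88 of 3999 genes (2.2%) were called higher and 159 (3.98%) lower under Chd4 siRNA, and 76 of 3777 (2.01%) higher and 126 (3.34%) lower under control siRNA. Replication genes had medians of −0.32 with 50 of 55 below 0 under Chd4 siRNA, and −0.06 with 33 of 55 below 0 under control siRNA. No median over all genes is given for this comparison, so a value as small as −0.06 cannot be set against one. 2810417H13Rik had 98.9 and 107 CPM in S phase-high cells, against 215 and 174 CPM in G2/M-high cells, and Ccna2 71.6 and 66.4 against 197 and 191 CPM. Mcm5 had 120 and 140 CPM against 118 and 102 CPM. The mitosis genes separated the sets, with medians of −1.31 and −1.19 and with 20 of 21 and 18 of 19 called lower. Since the rule divided these 2 sets by G2/M genes, this follows from the choice of cells and is a description. Histone genes had medians of −0.99 and −0.90. The 8 genes of the rule were at 884 CPM in S phase-high cells against 995 CPM in G2/M-high cells under Chd4 siRNA, and at 952 against 841 CPM under control siRNA, so the order of the 2 sets differed between libraries. As these genes chose the S phase-high cells, this order is a description.

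A few genes peaked in S phase-high cells. Of 3659 genes with enough UMIs in every pair of sets, 38 (1.04%) stood above both the remaining and the G2/M-high cells in both libraries with all 4 intervals above 0. Ccnd2, cyclin D2, a G1 cyclin induced by GDNF in spermatogonia, had 872 and 904 CPM in S phase-high cells, against 645 and 663 CPM in the remaining cells and 407 and 403 CPM in G2/M-high cells. Its log2 ratios were 0.43 and 0.45 over the remaining cells and 1.10 and 1.17 over G2/M-high cells. Bcl6b stood 1.22 and 1.19 above G2/M-high cells, where it had 50.9 and 51.3 CPM. Further such genes, chosen after their values were seen, were Ppfibp2 (0.47 and 0.51 over the remaining cells), Kank3 (0.71 and 0.84), Tmem59l (0.49 and 0.40), Cisd1 (0.24 and 0.31), the metallothionein gene Mt2 (0.15 and 0.19) and the hypoxia-induced gene Fam162a (0.33 and 0.41). T had the same order, with 13.2 and 13.7 CPM in G2/M-high cells, but too few UMIs to enter the count.

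**Figure D4:**
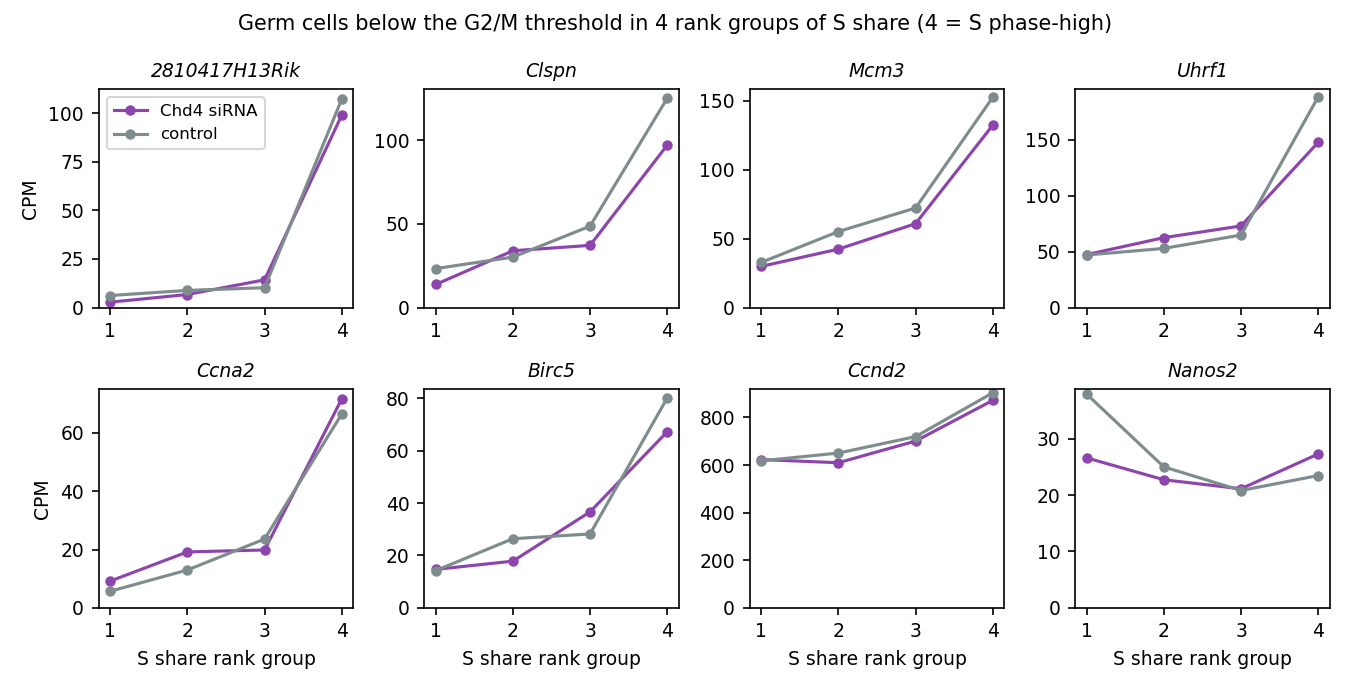
Lines give the summed level (CPM) of 8 genes in germ cells below the G2/M threshold, divided into 4 rank groups by their share of UMIs from the 8 S phase genes, in the Chd4 siRNA library (purple) and the control library (grey); group 4 holds the S phase-high cells. 2810417H13Rik jumps between groups 3 and 4, Ccnd2 is highest in group 4 with smaller steps, and Nanos2 shows no climb.

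Across the rank groups of S phase share, the largest step of the genes below was into group 4. Group 4 spans shares of 4.91 to 29.1 UMIs per 10000 under Chd4 siRNA and 4.93 to 24.25 under control siRNA. Groups 1 to 3 together lie between 0 and 4.905, so the groups are not even steps of the share. 2810417H13Rik had 2.75, 6.69, 14.2 and 98.9 CPM in rank groups 1 to 4 under Chd4 siRNA and 6.16, 8.80, 10.2 and 107 CPM under control siRNA. Clspn had 13.8, 33.9, 37.1 and 97.0 CPM under Chd4 siRNA and 23.2, 30.1, 48.6 and 125 CPM under control siRNA. Mcm3 climbed more evenly, at 29.8, 42.4, 60.8 and 132 CPM and at 32.7, 55.1, 72.2 and 152 CPM. Each step of Mcm3 was upward in both libraries. The groups held 146 to 152 cells up to the third and 157 and 141 cells in the last.

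The S phase-high cells also varied among themselves. They were split at their median G2/M share of 4.62 UMIs per 10000, still below the level of the cells set aside. The upper side held 68 of 157 cells under Chd4 siRNA (43.3%, 35.4 to 51.5%) and 81 of 141 under control siRNA (57.4%, 48.8 to 65.7%), a difference of −14.1 percentage points (−25.0 to −2.77). The G2/M share had a median of 4.15 per 10000 in S phase-high cells under Chd4 siRNA and 5.20 under control siRNA. The upper side also had more S phase mRNA, 1074 CPM of the 8 genes under Chd4 siRNA and 1109 CPM under control siRNA, against 717 and 712 CPM in the lower side.

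Between these sides of the S phase-high cells, 37 of 1713 genes (2.16%) were called higher and 5 (0.292%) lower in the upper side under Chd4 siRNA, and 32 (1.87%) higher and 13 (0.759%) lower under control siRNA. 2810417H13Rik had 185 CPM in the upper side against 23.8 CPM in the lower side under Chd4 siRNA (2.96, 2.42 to 3.54), and 157 against 31.4 CPM under control siRNA (2.32, 1.75 to 2.94). Hmgb2 had 610 against 278 CPM (1.13) and 750 against 253 CPM (1.57), Tuba3b stood at 1.69 and 1.25 and Gmnn at 1.45 and 1.03. Replication genes had medians of 0.43 and 0.51, with 47 of 53 above 0 and 48 of 54 above 0, and no median over all genes is given beside them. The level of 2810417H13Rik in S phase-high cells thus came mainly from the upper side. Lower in that side were Rps4x (−0.92 and −0.53) and Sycp3, an axis protein of meiotic chromosomes that spermatogonia already transcribe (−0.44 and −0.50). Cells in the upper side were also deeper, with median UMIs of 16942 and 16183 against 14971 and 14722, and the part of depth in these ratios was not tested.

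The siRNA target was lower in the S phase-high cells. Chd4 (chr6:125095981-125130591 on the plus strand, mm10) had 697 UMIs and 276 CPM under Chd4 siRNA, against 1316 UMIs and 583 CPM under control siRNA, a log2 ratio of −1.08 (−1.21 to −0.95). It stood at −1.07 in the remaining cells and −1.10 in G2/M-high cells, so the drop was alike in the 3 sets. Among 3537 genes, 20 (0.565%) were called higher and 52 (1.47%) lower under Chd4 siRNA, with a median of 0.04 over all of them. In the remaining cells 33 of 6579 genes (0.502%) were called higher and 76 (1.16%) lower. Each siRNA was read in 1 pooled library, so a difference between libraries and an effect of the siRNA cannot be told apart.

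**Figure D5:**
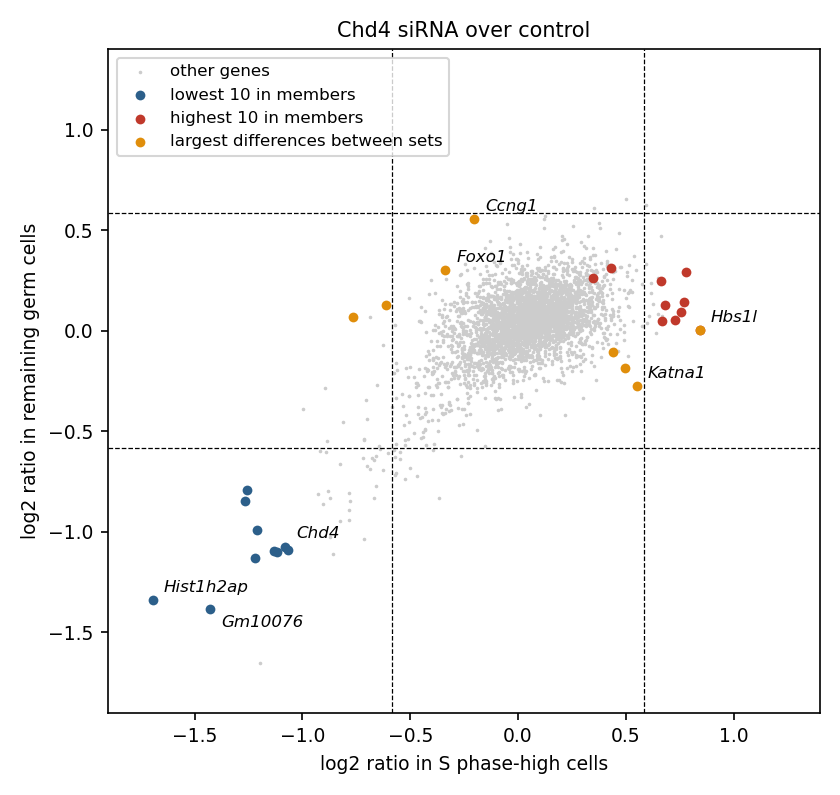
Each point is a gene, with its log2 ratio of Chd4 siRNA over control in S phase-high cells (x axis) and in the remaining germ cells (y axis); dashed lines mark 1.5-fold. The 10 lowest genes (blue) are low in both cell sets, while the 10 highest (red) lie between 0.00 and 0.31 in the remaining cells; Hbs1l, among the 10 highest, is drawn with the genes that differ most between sets (orange).

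Within the S phase-high cells, no replication gene with at least 200 UMIs differed by 1.5-fold between libraries. Of all genes with at least 200 UMIs, 97.96% were also within 1.5-fold, so this is not particular to replication genes. Replication genes outside the rule had a median of −0.06 under Chd4 siRNA over control, with 22 of 55 above 0 and 0 of 34 past 1.5-fold, and the median was 0.06 where no G2/M-high cells were set aside, so its sign depends on that step. Helicase activation and fork genes had a median of −0.29 with 10 of 14 below 0, and the 20 S phase markers outside the rule a median of −0.20 with 14 of 20 below 0, against −0.13 with 8 of 14 below 0 and −0.10 with 12 of 19 below 0 in the remaining cells. The 8 genes of the rule stood at −0.11 (−0.19 to −0.02) in S phase-high cells, at −0.00 (−0.11 to 0.10) in the remaining cells and at 0.24 (0.16 to 0.32) in G2/M-high cells. They divided the S phase-high from the remaining cells at a threshold shared by both libraries, so these values are a description and no support for a difference. Clspn followed the same order at −0.37 (−0.62 to −0.11), −0.26 (−0.55 to 0.03) and 0.45 (0.24 to 0.66). Uhrf1 stood at −0.35 (−0.56 to −0.15) in S phase-high cells, and Hmgb2 at −0.35 (−0.47 to −0.24), against −0.01 (−0.12 to 0.11) in the remaining cells. Both were higher in the upper side of G2/M share than in the lower, Uhrf1 by 0.87 under Chd4 siRNA and 0.47 under control siRNA, and the upper side held the smaller share of cells under Chd4 siRNA. The part of this in their library ratios was not tested. Mitosis genes had a median of 0.01, self-renewal genes 0.02 and cholesterol synthesis genes 0.11.

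The genes lowest under Chd4 siRNA were low in the remaining cells too. Of the 52 called lower, 38 were also called lower there and 49 stood on the same side of 0. Hist1h2ap had 21.8 CPM in S phase-high cells under Chd4 siRNA against 70.4 CPM under control siRNA (−1.69, −2.16 to −1.24), and 16 of 20 measured histone genes stood below 0, with a median of −0.53. Hmga1, a chromatin protein that binds AT-rich DNA, had 36.0 against 85.9 CPM (−1.26), Jund, a subunit of the AP-1 factor, 26.1 against 62.9 CPM (−1.27), and Tmem165, a Golgi membrane protein, 33.2 against 77.1 CPM (−1.21). The general transcription genes Taf10 (57.4 against 124 CPM, −1.12) and Polr2l (74.8 against 157 CPM, −1.07) and the kinetochore gene Bod1 (45.5 against 99.7 CPM, −1.13) were also about as low as Chd4. Gm10076 (200 against 538 CPM, −1.43) and Gm8186 (137 against 319 CPM, −1.22) are predicted genes whose reads can belong to near-identical copies, so their counts are uncertain.

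Of the 20 genes called higher under Chd4 siRNA, 1 was also called higher in the remaining cells, and 19 stood on the same side of 0 there. The median over all genes with at least 200 UMIs in the remaining cells was itself above 0, at 0.05, so the side of 0 says little. Most of those named lay close to the 1.5-fold line, and whether they were shared less than the genes called lower was not tested. Hbs1l, a factor that rescues stalled ribosomes, had 72.4 CPM in S phase-high cells under Chd4 siRNA against 40.3 CPM under control siRNA (0.85, 0.47 to 1.22). Phip had 89.0 against 51.8 CPM (0.78), Fbxo32, a ubiquitin ligase subunit, 58.2 against 34.1 CPM (0.77), the calpain gene Capn10 62.1 against 36.8 CPM (0.76) and Dcun1d1, which promotes neddylation, 56.6 against 34.1 CPM (0.73). The base excision glycosylase gene Neil2 stood at 0.68, the histone deacetylase gene Hdac3 at 0.67 and Eci2, of fatty acid oxidation, at 0.66. With narrower intervals at smaller ratios, Cct4, a chaperonin subunit, had 406 against 300.3 CPM (0.43, 0.29 to 0.58), and Eef2 2596 against 2037 CPM (0.35, 0.30 to 0.40). In the remaining cells these 2 genes stood at 0.31 and 0.26. Of the other genes named, Phip stood there at 0.29, Eci2 at 0.25, Fbxo32 at 0.14 and Neil2 at 0.13. Capn10 stood there at 0.09, Hdac3 and Dcun1d1 at 0.05 and Hbs1l at 0.00.

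The difference between the 2 cell sets in the Chd4 siRNA over control ratio was past 1.5-fold upward for 13 of 3535 genes (0.368%) and downward for 12 (0.339%). Upward were Hbs1l (0.85 in S phase-high cells, against 0.00 in the remaining cells), Katna1, of the microtubule-severing katanin (0.55 against −0.28), Lin37, of the complex that represses cell cycle genes in quiescence (0.50 against −0.18), and 1500009L16Rik (0.44 against −0.11). Downward were Kpna1, a nuclear import receptor (−0.77 against 0.07), Ccng1, cyclin G1, a p53 target (−0.20 against 0.55), Dennd5b (−0.61 against 0.13) and Foxo1, a transcription factor of spermatogonial stem cells (−0.34 against 0.30). These genes were picked for the size of the difference out of 3535, and no replicate shows whether they would recur.

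Ccng1 belongs to a list of p53 target genes, which spermatogonia can switch on after DNA damage. The list had a median of −0.15 in S phase-high cells under Chd4 siRNA over control, with 4 of 10 genes above 0, and 0.15 in the remaining cells, with 9 of 11 above 0. Ccng1 had 70.0 CPM under Chd4 siRNA against 80.6 CPM under control siRNA in S phase-high cells, and 115 against 78.1 CPM in the remaining cells. In G2/M-high cells it was at 134 against 99.2 CPM (0.44, 0.22 to 0.66). Ccng1 was picked for its difference between the S phase-high and remaining cells, so that difference restates the choice, and the list holds it. Cdkn1a, the p21 inhibitor, stood at −0.49 (−0.93 to −0.06), 0.07 and 0.24 in S phase-high, remaining and G2/M-high cells, and Phlda3, an inhibitor of AKT, at −0.50 (−1.07 to 0.06), 0.25 and 1.01 (0.56 to 1.47). Both had fewer than 200 UMIs in the S phase-high cells of the 2 libraries together. Mdm2, the ubiquitin ligase of p53, did not follow this order, at 0.33, 0.19 and 0.18, nor did Trp53inp1, at 0.14, −0.02 and −0.19, and the pro-apoptotic gene Bax stood at 0.03, 0.22 and 0.20. On summed UMIs of S phase-high over remaining cells, Cdkn1a was at −0.64 (−1.002 to −0.28) under Chd4 siRNA and −0.07 (−0.41 to 0.26) under control siRNA. By cells with a UMI it was level. Under Chd4 siRNA it was seen in 47 of 157 S phase-high cells (29.9%) against 132 of 455 remaining cells (29.0%). Under control siRNA the shares were 33.3% and 32.1%. Under Chd4 siRNA 5 cells held 34.15% of its UMIs in S phase-high cells, and 5 cells held 20.6% in the remaining cells.

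Pola1 encodes the subunit of polymerase alpha that extends the RNA primer with DNA. It was singled out after its values were seen. In S phase-high cells it had 77 UMIs under Chd4 siRNA and 62 under control siRNA (30.5 against 27.5 CPM, log2 0.15, −0.35 to 0.66). In the remaining cells it had 111 against 252 UMIs (16.5 against 39.2 CPM, −1.25, −1.59 to −0.92). Of the 252 UMIs of the control library, 111 (44.0%) came from 5 cells, 47 of them from 1 cell. On summed UMIs, S phase-high over remaining cells was 0.89 (0.45 to 1.32) under Chd4 siRNA and −0.51 (−0.94 to −0.11) under control siRNA. By cells with a UMI both libraries ran the same way: Pola1 was seen in 49 of 157 S phase-high cells (31.2%) against 67 of 455 remaining cells (14.7%) under Chd4 siRNA, and in 46 of 141 (32.6%) against 83 of 439 (18.9%) under control siRNA. In the remaining cells under Chd4 siRNA, 5 cells likewise held 40 of the 111 UMIs (36.0%). What part of the negative control ratio comes from a few cells with many UMIs was not tested. The same holds for the library ratio in the remaining cells.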

How the data were processed

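The deposited files hold 2 droplet libraries (10x Genomics v2 chemistry) as sparse matrices of whole-number UMI counts per gene and cell, with no normalization. Cell Ranger 2.1.0, Seurat and the build mm10 are named in the submitters' processing notes, without their roles. Of 27998 matrix rows, 1105 had no gene name in the list used here. They held 12.6% of UMIs under Chd4 siRNA and 12.1% under control siRNA, and stayed out of totals and ratios. Named rows held 15920307 UMIs in 860 cells under Chd4 siRNA and 14826257 UMIs in 816 cells under control siRNA.

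Counts were summed over the cells of each set and library and divided by the set's total (CPM). Log2 ratios carry exact conditional binomial intervals, shares Clopper-Pearson intervals and differences of shares Newcombe intervals, all at 95%. UMIs of 1 cell are not independent, so intervals are too narrow for a comparison of cells. Counts of genes past 1.5-fold used genes with at least 200 UMIs in the sets compared, and list medians genes with at least 20. Single genes with fewer than 200 are given with their intervals or as members of a list. The 15 highest and 10 lowest genes between cell sets, the 10 highest and 10 lowest between libraries, and the 4 highest and 4 lowest differences were taken by the interval bound nearest to 0; some genes that these rules name are not reported here. The members and lists were chosen with earlier results of these data known. Scrublet (scanpy 1.11.5, expected rate 1%) called 6 cells under Chd4 siRNA and 8 under control siRNA, 3 and 4 of them S phase-high, and these were kept. The ratios and their intervals were tested on simulated counts, and thinning on cells of the data. The selection rule was not tested in this way. Python 3.11.15, numpy 2.4.6, scipy 1.17.1 and pandas 2.3.3 were used, with edgeR 4.0.16 and DESeq2 1.42.0 in R 4.3.3 for alternative scaling alone.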

Additional observations from a re-analysis of the deposited data

How the results depend on the processing

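No paired analysis was possible because each group is 1 pooled library, and no replicate could be left out. Of 196 values of the main counts and medians under alternatives, 154 stayed within the set limits, 42 moved and 0 reversed as called values. Of 924 values of named genes, 865 stayed and 59 moved. Neither TMM nor DESeq2 scaling is among the moves. Genes higher in S phase-high over remaining cells (111 under Chd4 siRNA, 132 under control siRNA) numbered 246 and 254 with no G2/M-high cells set aside, 63 and 81 with cells thinned to 9000 UMIs, 646 and 734 at a minimum of 20 UMIs per gene, and 38 and 50 at 500. Genes lower (45 and 48) numbered 216 and 181 with the top 15% by S phase share, 22 and 13 with the top 35%, 165 and 142 with no G2/M-high cells set aside, 27 and 25 after thinning, 794 and 838 at 20 UMIs, and 3 and 6 at 500. Under Chd4 siRNA over control in S phase-high cells, the 20 genes higher became 9 with the top 15%, 9 with the top 35%, 7 after thinning, 13 without Mcm5 in the share, 561 at 20 UMIs and 0 at 500, and the 52 lower became 34 with the top 15%, 28 after thinning, 511 at 20 UMIs and 21 at 500. For the difference between cell sets, the 13 higher became 5 with the top 15%, 5 after thinning, 633 at 20 UMIs and 0 at 500. The 12 lower became 6 with the top 15%, 19 with the top 35%, 7 without Mcm5, 27 with the mean of per-cell CPM, 668 at 20 UMIs and 0 at 500. With no G2/M-high cells set aside, the median of the replication genes was 0.88 in S phase-high over remaining cells under Chd4 siRNA, and 0.0597 in Chd4 siRNA over control. A minimum of UMIs changes how many genes are tested, and thinning leaves fewer UMIs; for the other settings the cause was not tested. Leaving out cells with over 20% of UMIs in unnamed rows, an alternative chosen after seeing the data, moved none of these counts. Few UMIs behind a gene widen its interval, and no interval covers the spread between replicates.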
